A study of Mus musculus with 2 samples.

Results

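The guanylate-binding protein (Gbp) genes of these libraries are described here. Every gene whose symbol is Gbp followed by a digit was taken, which gave 10 of the 14197 genes in the deposited table. They are Gbp2, Gbp2b, Gbp3, Gbp5 and Gbp7 on chromosome 3 and Gbp4, Gbp6, Gbp8, Gbp9 and Gbp10 on chromosome 5. The mouse annotation GENCODE M21 also names Gbp11, which the table does not list. No listed gene had a mean below 29.5 reads over the 2 libraries, so a gene that is not listed may still have had some reads. The members were set by name, but the family was selected on the RPKM of these same libraries, with its values already known. Its differences are therefore a description and carry no test.

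Guanylate-binding proteins (GBPs) are large GTPases that cells make in response to interferons. They assemble on intracellular bacteria and on the vacuoles of parasites, and they help inflammasomes to form there. In cells that respond to interferon-gamma, the signal runs from its receptor through the kinases JAK1 and JAK2 to transcription factors such as IRF1, which switch on the Gbp genes.

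The libraries came from 4T1 cells, a mouse mammary carcinoma line labelled as wild type. In the AS group the cells received 20 µM astragalin (AS), a plant flavonoid, for 24 h, as the design text of the series gives it, and the other group received the vehicle. Each group was 1 stranded mRNA library, so no difference has a replicate check; whatever else set the dishes apart cannot be told apart from the effect of AS. RPKM gives the reads of a gene per kilobase of its exons and relative to the reads of the whole library. The whole reads behind the RPKM were recovered, and they implied library sizes of 44909683 reads with AS and 50820728 with the vehicle. All 8 epithelial markers examined were in the table, and their summed RPKM was 1809 with AS against 2324 with vehicle. Keratins made up most of this gap, with Krt18 at 707 against 902 and Krt8 at 372 against 540. Epcam was at 335 against 357, and Cdh1, the 1 marker higher with AS, at 95.5 against 84.6. Of 8 macrophage markers, 6 were in the table, with a summed RPKM of 29.9 with AS against 33.5 with vehicle, most of it Cd68. Cd68 was at 24.0 against 28.1, while 4 of the 6 were higher with AS. Adgre1, C1qa, all 8 lymphoid and all 3 endothelial markers were not listed. Ptprc was at 0.12 RPKM with AS against 0.11 RPKM with vehicle. Of 6 fibroblast markers, 4 were in the table and all 4 were higher with AS. Their summed RPKM was 6.08 with AS against 5.67 with vehicle. In such bulk samples, fewer cells that express a gene and less RNA per cell cannot be told apart.

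The Gbp genes fell into 2 sets by their place in the genome. The 5 genes on chromosome 5 were 1.90- to 3.10-fold higher in the AS library, and the 5 genes on chromosome 3 were 1.12- to 1.42-fold higher. Summed over the family, the level was 52.8 RPKM with AS against 36.4 RPKM with vehicle, a ratio of 1.45. The 5 genes of chromosome 5 made up 27.4% of the family's RPKM with the vehicle and 39.6% with AS, and they held 67% of the added RPKM.

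The genes on chromosome 5 are close copies of each other. The start of their coding sequences is shown because it lets a reader see how alike these genes are there. Over the whole coding sequences they differ more, as given below. The first 60 coding bases are given on the minus strand of GRCm38 from the GENCODE M21 transcripts, and capitals mark the bases that differ from the most common base of the 5 genes at that position.

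Gbp4, chr5:105136962-105137021: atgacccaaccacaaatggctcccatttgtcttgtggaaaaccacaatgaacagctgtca

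Gbp6, chr5:105290961-105291020: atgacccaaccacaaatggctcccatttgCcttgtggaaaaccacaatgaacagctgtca

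Gbp8, chr5:105050988-105051047: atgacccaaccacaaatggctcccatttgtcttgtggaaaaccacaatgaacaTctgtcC

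Gbp9, chr5:105105788-105105847: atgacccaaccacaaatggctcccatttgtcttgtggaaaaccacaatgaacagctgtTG

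Gbp10, chr5:105236075-105236134: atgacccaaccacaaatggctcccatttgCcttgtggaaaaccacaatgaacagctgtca

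Gbp6 and Gbp10 had the same 60 bases, and the other members of this set differed from the common sequence at 0 to 2 positions. Over their whole coding sequences, the 10 pairs of genes on chromosome 5 were 89.6% to 98.4% identical in the aligned bases, with a median of 90.6%. Gbp6 and Gbp10 were the closest pair of the family. Bases in gaps, from 0 for Gbp6 and Gbp10 to 332 for Gbp4 and Gbp8 among these pairs, were not counted. The 10 pairs on chromosome 3 were 61.5% to 82.5% identical, with a median of 63.0%, and Gbp2 and Gbp2b were the closest pair there. Between the chromosomes, the identity was 60.9% to 74.9% over 25 pairs, and Gbp3 and Gbp7 lay nearer to the chromosome 5 genes than Gbp2, Gbp2b and Gbp5 did.

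**Figure D1:**
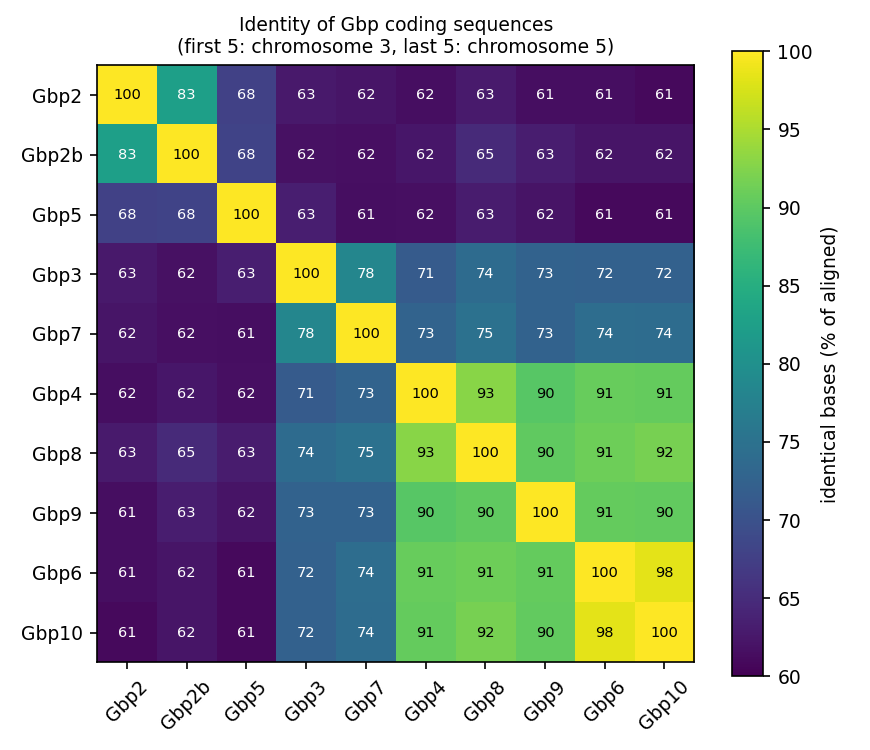
Share of identical bases among the aligned bases of the coding sequences for each pair of the 10 Gbp genes, in percent, with 1 coding sequence per gene. The 5 genes of chromosome 5 form a block at 89.6% or above, and the pair of Gbp6 and Gbp10 reaches 98.4%.

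Gbp4 showed the largest ratio of the family. It spans 105115767 to 105139586 on the minus strand of chromosome 5, and its level was 2.46 RPKM with AS against 0.793 RPKM with vehicle, from 827 and 302 reads. Its log2 ratio of AS to vehicle was 1.52 after 0.1 RPKM was added to each library. This scale, used for all log2 ratios unless stated, makes the change of a weakly expressed gene look smaller than it was. From the reads alone the log2 ratio was 1.63 (95% Clopper-Pearson interval, 1.44 to 1.83). These intervals cover counting error only, since each group is 1 library. Reads without molecular identifiers are not independent molecules, so the intervals may be too narrow even for counting error. Among all genes of the table, Gbp4 stood at place 20 by its log2 ratio.

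Gbp8, which spans 105014150 to 105139540, had 1.85 RPKM with AS against 0.703 RPKM with vehicle, from 286 and 123 reads. Its log2 ratio was 1.28, and 1.40 from the reads alone, with an interval from 1.09 to 1.71. The RPKM of Gbp10, on 105215699 to 105239533, was 0.966 with AS against 0.376 with vehicle, from only 168 and 74 reads. Both genes were higher in the AS library, but the low depth of Gbp10 left a wide interval. From the reads, the log2 ratio of Gbp10 was 1.36 with an interval from 0.96 to 1.78, and with 0.1 RPKM added it was 1.16. Gbp6, on 105270702 to 105293698, had 1.43 RPKM with AS against 0.641 RPKM with vehicle, from 383 and 194 reads, and a log2 ratio of 1.05. From its reads alone the log2 ratio was 1.16, with an interval from 0.91 to 1.42.

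Gbp9, which spans 105077630 to 105139539, was by far the most abundant gene of this set. Its level was 14.2 RPKM with AS against 7.46 RPKM with vehicle, from 3302 and 1962 reads, and it alone held 41.3% of the RPKM that the family gained. Its log2 ratio was 0.92, just under 2-fold, with an interval of the reads from 0.85 to 1.01. The family was led by Gbp2b with the vehicle and by Gbp9 with AS.

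The chromosome 3 genes are known from work on bacterial and parasite infection. Gbp2, whose product carries a lipid anchor and coats pathogen vacuoles, had 10.3 RPKM with AS against 7.81 RPKM with vehicle, from 1161 and 999 reads. Its log2 ratio was 0.39, the highest of this set with 0.1 RPKM added, while without an added amount that of Gbp5 was higher. Gbp2b, formerly called Gbp1, had 12.3 RPKM with AS against 11.0 RPKM with vehicle, from 1565 and 1578 reads, and its log2 ratio of 0.17 was the lowest of the family. These abundant genes thus differed little between the libraries.

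Gbp3 had 6.75 RPKM with AS against 5.77 RPKM with vehicle, from 990 and 957 reads, and a log2 ratio of 0.22. Gbp7 had 2.31 RPKM with AS against 1.76 RPKM with vehicle, from 583 and 503 reads, and a log2 ratio of 0.37. The counting intervals of Gbp2, Gbp2b, Gbp3 and Gbp7, from reads per library size, all lay above 0 and below 1.5-fold. That of Gbp2b began at 0.0647, no higher than the median log2 ratio of all genes, 0.0661 with 0.1 RPKM added. The scalings tried shift log2 ratios by -0.07 to -0.08, which is larger in size than this lower end. The difference of Gbp2b is therefore not separated from the offset between the libraries. Gbp5, whose product promotes inflammasome assembly in macrophages, was nearly silent here. Its level was 0.164 RPKM with AS against 0.116 RPKM with vehicle, from 49 and 39 reads. Its log2 ratio from the reads was 0.51 with an interval from -0.13 to 1.15, so a difference was not detectable at this depth.

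**Figure D2:**
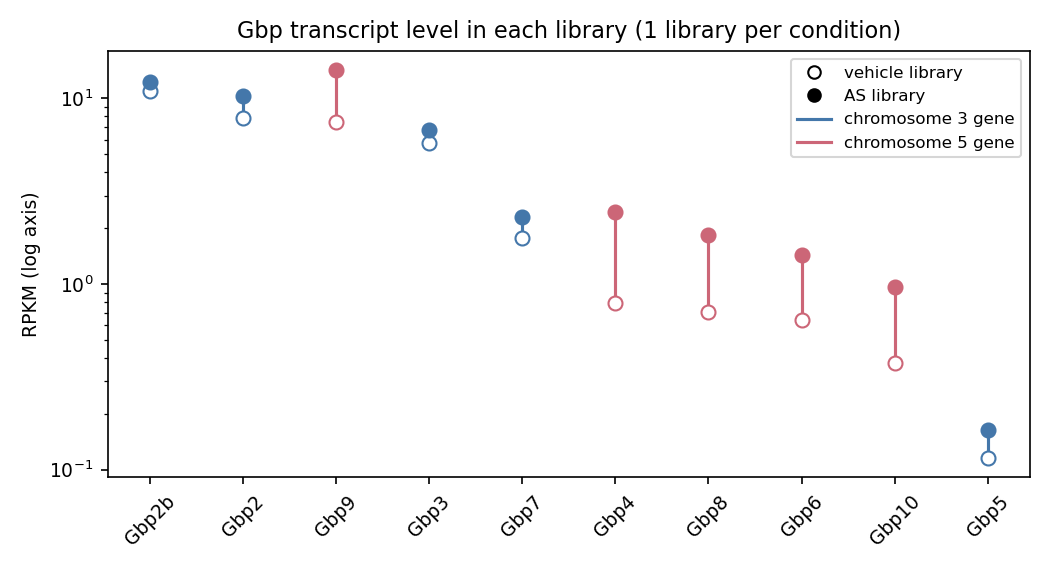
RPKM of each Gbp gene in the vehicle library (open) and the AS library (filled) on a log axis, ordered by the level with the vehicle and coloured by chromosome. The gap between the points is wider for each gene of chromosome 5 than for any gene of chromosome 3, and Gbp9 passes Gbp2b with AS.

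**Figure D3:**
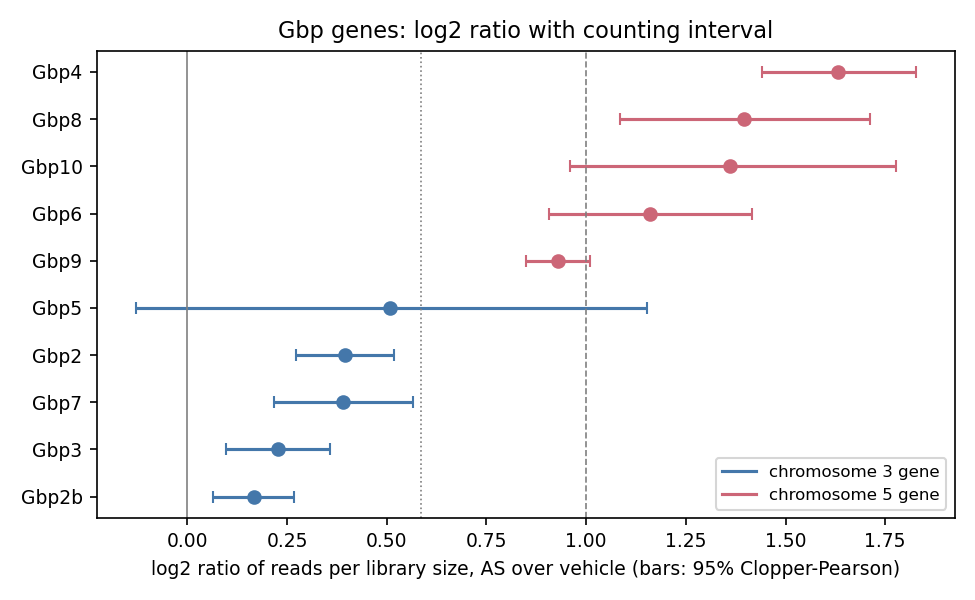
Log2 ratio of reads per library size, AS over vehicle, with 95% Clopper-Pearson intervals that cover counting error only. The dotted line is 1.5-fold and the dashed line 2-fold, and apart from Gbp5 with its 49 and 39 reads, the intervals of the chromosome 3 genes end below those of the chromosome 5 genes.

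Within the vehicle library, Gbp2b was followed by Gbp2, Gbp9 and Gbp3, and a gap of 3.27-fold then separated Gbp3 from Gbp7. Gbp4, Gbp8 and Gbp6 lay within 0.641 to 0.793 RPKM, with Gbp10 below them and Gbp5 last. With AS, Gbp9 moved from the third to the first place and Gbp4 passed Gbp7, while Gbp8, Gbp6, Gbp10 and Gbp5 kept their order. Close neighbours in these orders, such as Gbp2 and Gbp9 with the vehicle (1.05-fold apart) and Gbp4 and Gbp7 with AS (1.06-fold apart), have no replicate spread against which to separate them.

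In all, 4 of the 10 Gbp genes were more than 2-fold higher with AS, where 0.662% of all genes were, and 5 were more than 1.5-fold higher, where 3.56% of all genes were. The fifth gene was Gbp9. Among the 4, Gbp6 and Gbp10 share most of their sequence with other genes, so their reads are uncertain, as given below. The counting intervals of both begin below 2-fold. Lower values by more than 1.5-fold were seen in 0 Gbp genes, against 2.01% of all genes, and by more than 2-fold in 0 Gbp genes, against 0.31%. The median log2 ratio was 0.66 over the 10 Gbp genes, 1.16 over those of chromosome 5 and 0.29 over those of chromosome 3, beside 0.07 over all genes. These counts depend on the amount added and on the scaling. With 1 RPKM added to both values, 0 Gbp genes passed 2-fold and 3 passed 1.5-fold. With TMM, median-of-ratios or upper-quartile scaling, 3 passed 2-fold, since the log2 ratio of Gbp6 was then 0.98 to 0.99. The lowest log2 ratio on chromosome 5 stayed above the highest on chromosome 3 with each added amount and scaling tried, by 0.16 with 1 RPKM added and by 0.53 in the values reported here.

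The sets sit in 2 gene clusters, of 144 kb on chromosome 3 (142493978 to 142638008) and of 280 kb on chromosome 5 (105014150 to 105293698). The 4 genes of the table on each side of each cluster, chosen after the Gbp values were seen, were compared with them. Around the chromosome 5 cluster, the 8 flanking genes had log2 ratios from -0.32 to 0.61, with a median of 0.19. The highest was Lrrc8d, a subunit of volume-regulated anion channels, at 5.70 RPKM with AS against 3.70 RPKM with vehicle. The nearest genes on either side, Zfp951 and Lrrc8b, had log2 ratios of 0.30 and 0.18. Around the chromosome 3 cluster, the 8 flanking genes ranged from -0.23 to 0.30, with a median of 0.06.

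**Figure D4:**
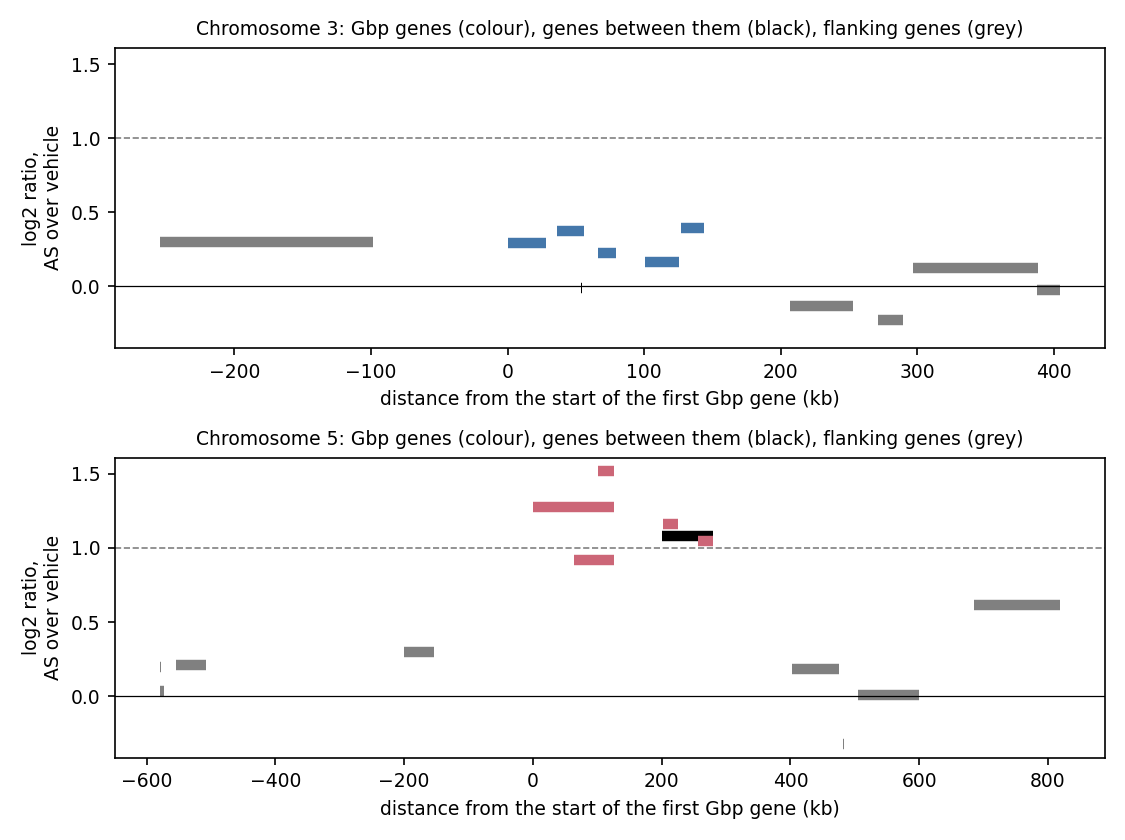
Log2 ratio, AS over vehicle, of each gene against its position as the distance from the start of the first Gbp gene in kb, with bars as long as the genes. Eif4e, Tspan5 and Rap1gds1, which lie far before the chromosome 3 cluster, are not drawn. The bars of the chromosome 5 Gbp genes and of Gm43302 lie above their flanking genes, which reach 0.61 at most.

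Annotated exons and sequences are shared among the chromosome 5 genes, and the settings of the read counting are not given in the sources used here. GENCODE M21 gives Gbp4, Gbp8 and Gbp9 a common first exon, of which 60 bases (105139480 to 105139539) lie in all 3 genes. Of the words of 50 bases in the transcripts of Gbp4 and Gbp9, 92.3% and 92.0% were found in no other gene, and of Gbp8 81.9%. For these 3 genes most positions thus had a sequence of their own. This was not so for Gbp6 and Gbp10, where 29.3% and 15.9% of the words were their own. With words of 100 bases the shares were 35.5% and 26.5%, and reads of this pair are uncertain. Gm43302, a protein-coding gene model chosen after its values were seen, joins exons of both and shares 1726 exon bases with Gbp6 and 1792 with Gbp10. Its level was 2.06 RPKM with AS against 0.918 RPKM with vehicle, a log2 ratio of 1.08. Summed, Gbp6, Gbp10 and Gm43302 had 949 reads with AS against 469 with vehicle. The log2 ratio of these reads was 1.20 with an interval from 1.03 to 1.36. Reads counted once give the same sum however they were divided among the 3. Reads that were left out, or counted for more than 1 gene, would alter it. Of the chromosome 3 genes, at least 96.2% of the words of Gbp2, Gbp2b, Gbp3 and Gbp5 were their own, and 87.3% of those of Gbp7, which shares 10.5% with the processed pseudogene Gm43802 inside its locus.

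Promoter sequences from RefSeq (GRCm38.p6), from 250 bases before to 50 bases after the start of the gene, were matched for 5 members, those of chromosome 3. No entry was matched for Gbp4, Gbp6, Gbp8, Gbp9 and Gbp10. The windows were searched on both strands for the core of the interferon-stimulated response element, GAAANNGAAA, which reads TTTCNNTTTC on the other strand. The core was in the windows of all 5 genes, in 1 of the 2 windows of Gbp3, and in 3.44% of all 32851 promoters in the table. The stretches are shown since they are the letters through which interferon-driven factors are known to act on such genes, with the match in capitals on the plus strand.

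Gbp5, chr3:142496759-142496788: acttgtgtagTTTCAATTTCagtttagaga

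Gbp7, chr3:142530273-142530302: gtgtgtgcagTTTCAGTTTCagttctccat

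Gbp3, chr3:142559989-142560018: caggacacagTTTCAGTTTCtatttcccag

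Gbp2b, chr3:142594700-142594729: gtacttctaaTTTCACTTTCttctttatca

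Gbp2, chr3:142620594-142620623: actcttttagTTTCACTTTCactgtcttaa

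The matches shown began between 45 and 165 bases before the RefSeq start, and Gbp3 held a second match that overlaps the one shown. GENCODE M21 places some starts elsewhere. It starts Gbp2 at 142620602 and Gbp5 at 142493978, so the matches of these 2 genes lie inside their GENCODE spans. The interferon-gamma activated sequence, GAS, was searched as TTCNNNGAA, which reads the same on both strands. It had 2 matches each in the windows of Gbp5 and Gbp7 and was in 8.30% of all promoters. A match is a run of letters in this window and not a measured binding site.

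Genes of the interferon pathway, relatives of the GBPs and genes that act with or on GBP proteins were set beside the family. They made 10 lists of 145 genes, of which 106 were in the table. With 0.1 RPKM added, 0 of them passed 2-fold in either direction, where 0.662% of all genes were higher and 0.31% lower. With no amount added, 3 passed 2-fold upward, namely Mx1, Socs1 and Casp4. The rule of 1.5-fold was passed upward by 6, where 3.56% of all genes passed it, and downward by 1, where 2.01% did. The 6 were Mx1, Casp4, Ifit3b, Sqstm1, Socs1 and Casp1, and the 1 lower gene was Nos2. The median log2 ratio of the 106 genes was 0.08, close to the 0.07 of all genes. The 106 are not interferon genes alone, so each list is also given below.

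None of the 9 interferon genes examined, among them Ifng and Ifnb1, was listed in the table. All 16 genes of the receptors, kinases and transcription factors were listed, and 0 passed 1.5-fold. Ifngr1, which encodes the ligand-binding chain of the interferon-gamma receptor, had 22.5 RPKM with AS against 20.6 RPKM with vehicle. Ifngr2, its partner chain, had a log2 ratio of -0.02. Jak1 had 15.1 RPKM with AS against 16.1 RPKM with vehicle, and Jak2 had 29.1 against 28.0 RPKM. These 4 genes of the interferon-gamma signal were thus close to level. Over the 16 genes, the log2 ratios ran from -0.20 for Smarca4 to 0.50 for Ifnar2, and 10 were above 0. Ifnar2, another receptor gene, had 33.3 RPKM with AS against 23.5 RPKM with vehicle. Irf1 had 15.3 RPKM with AS against 16.9 RPKM with vehicle, a log2 ratio of -0.14.

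Among 9 negative regulators, Socs1 alone passed 1.5-fold. Socs1, which encodes an inhibitor of JAK kinases and is itself switched on by interferon, had 0.398 RPKM with AS against 0.176 RPKM with vehicle, from 52 and 26 reads, and a log2 ratio of 0.85. Irf2, which encodes an antagonist of IRF1, had a log2 ratio of 0.25. The median of the list was -0.02.

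Among the relatives of the GBPs, Mx1 alone passed 1.5-fold. Some immunity-related GTPases act with GBPs on parasite vacuoles. Of 14 genes of this family, 6 were in the table and 0 passed 1.5-fold, with log2 ratios from -0.16 for Tgtp2 to 0.33 for Irgq. The most abundant, Igtp, had 7.91 RPKM with AS against 6.82 RPKM with vehicle. Of the other large GTPases, Mx1, an antiviral protein gene, had a log2 ratio of 0.98 from only 55 reads with AS against 23 with vehicle. The atlastins, which fuse membranes of the endoplasmic reticulum, had log2 ratios from 0.09 to 0.14.

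The lists of other interferon targets had medians near that of all genes. Of 19 listed genes of the interferon-gamma response, 1 was lower by more than 1.5-fold and 0 were higher, with a median of 0.05. The lower gene was Nos2, the inducible nitric oxide synthase, at 5.12 RPKM with AS against 8.48 RPKM with vehicle. H2-K1, an MHC class I gene, had 142 RPKM with AS against 135 RPKM with vehicle. Of 27 listed genes of the type I interferon response, Ifit3b alone passed 1.5-fold, at 1.51 RPKM with AS against 0.767 RPKM with vehicle, and the median of the list was below 0.01 in size. The antiviral gene Isg15 had 6.14 RPKM with AS against 6.38 RPKM with vehicle. Chosen after their values were seen, Rtp4 and Oasl1 came next to Ifit3b, with log2 ratios of 0.54 each, and Usp18 was lowest at -0.23. Of these 27 genes, 13 had a log2 ratio above 0. In the interferon-gamma list 11 of 19 did, up to 0.37 for Trim21, beside 60.9% of all genes.

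Of the genes that act with or on GBP proteins, those of the inflammasome were few and low. Casp4, the caspase that senses bacterial lipopolysaccharide together with GBPs, had 1.38 RPKM with AS against 0.684 RPKM with vehicle, from 230 and 129 reads, and a log2 ratio of 0.92. Casp1, the caspase that matures interleukins, had 1.65 RPKM with AS against 0.960 RPKM with vehicle and a log2 ratio of 0.73. Of the same list and chosen after their values were seen, Il18, an interleukin gene, was at 1.94 against 2.88 RPKM (log2 ratio -0.54) and Gsdmd, which encodes a pore-forming protein, at 1.68 against 2.14 RPKM (-0.33). Aim2, Nlrp3 and Pycard were not listed, and the median over the 7 listed genes was 0.04. Among 11 genes of ATG8 conjugation, through which GBPs find vacuoles, Sqstm1 alone passed 1.5-fold, with 260 RPKM with AS against 144 RPKM with vehicle. Sqstm1 encodes an autophagy receptor and is also a target of NRF2. The prenylation list holds 6 genes of enzymes that attach a lipid anchor, as some GBPs carry, or process the protein end that bears it. Their log2 ratios ran from -0.19 to 0.25.

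**Figure D5:**
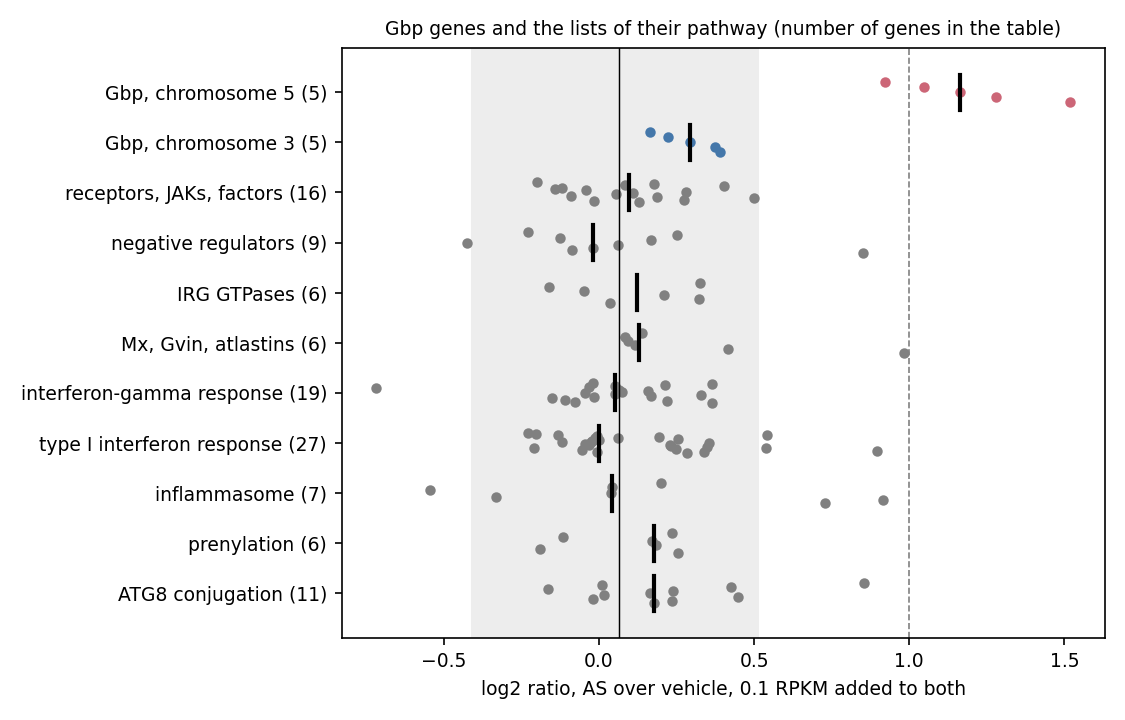
Log2 ratio, AS over vehicle with 0.1 RPKM added, for the Gbp genes and for the genes of each pathway list, with black bars at the medians. The shaded band holds the values between the percentiles 5 and 95 of all genes (-0.41 to 0.51), the thin line is the median of all genes and the dashed line is 2-fold; the 5 chromosome 5 genes lie to the right of the band and the 5 chromosome 3 genes inside it.

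The genes outside the family whose log2 ratio was nearest to that of the summed family, 0.53, were Mal2 (9.36 RPKM with AS against 6.44 with vehicle), Mppe1 (2.27 against 1.54) and 9930014A18Rik (2.68 against 1.82). Over 2 libraries this likeness is weak, since 480 of 11958 genes with an RPKM of at least 1 in both lay within 0.1 of it.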

How the data were processed

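The authors deposited 1 table with the RPKM of both libraries, with genes listed by symbol. The deposited table also holds the log2 of the mean CPM per gene, and a fold change, p-value and FDR from the authors' own comparison, which were not used. The header names no unit; RPKM was inferred from the values. The submitters' processing notes list fastp 0.23.4, STAR 2.5.3a, featureCounts and the build GRCh38, a human build. The symbols are those of mouse, and 94.2% of the 13502 genes with 1 entry in GENCODE M21 (mouse, GRCm38) gave whole reads (within 0.001) in both libraries at the exon length of that annotation, all 10 Gbp genes among them. Coordinates are therefore those of GRCm38. For the other genes, the exon length that gave whole reads and lay nearest to the length implied by the mean CPM was used. Reads summed to 44820058 with AS and 50723559 with the vehicle. The recovery was tested on simulated data.

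The plan used log2 ratios of RPKM with 0.1 added and no test, as there is 1 library per condition, with 2-fold and 1.5-fold as rules of size. Counting intervals (95%, Clopper-Pearson) came from the recovered reads (scipy 1.17.1). Alternatives were 0 or 1 RPKM added, scaling by TMM, by upper quartile or by median of ratios, a minimum mean RPKM of 1 and other sums of the members. Identity came from global alignment of the longest complete coding sequences (Biopython 1.88). The genes named are all members, list genes past 1.5-fold, a fixed set of receptors, kinases and factors (1 of which is not reported here), the 3 genes nearest to the family, and others chosen after their values were seen (among them Isg15, H2-K1, Igtp, Tgtp2, Irgq, the genes flanking the clusters and Gm43302). The members and lists were chosen with earlier results of these data known.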

Additional observations from a re-analysis of the deposited data

How the results depend on the processing

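The log2 ratio of each Gbp gene kept its sign under every added amount and scaling tried. With 1 RPKM added, those of Gbp4, Gbp8, Gbp6 and Gbp10 were 0.95, 0.74, 0.57 and 0.51, and the numbers of Gbp genes past 2-fold and 1.5-fold upward were 0 and 3, since 1 RPKM is more than the vehicle level of these genes. The log2 ratio of the summed family, 0.53, was 0.46 with TMM and with median-of-ratios scaling and 0.45 with upper-quartile scaling, which lower the median of all genes by 0.07 to 0.08. It was 0.65 from summed reads, 0.74 as the mean of the members, 0.67 without Gbp2b, the member with the highest mean RPKM, 0.27 for the chromosome 3 genes and 1.06 for those of chromosome 5. Chosen after seeing the data, it was 0.41 without Gbp9 and 0.67 without Gbp2b and Gbp5. Of the pathway lists, 3 genes passed 2-fold upward with 0 RPKM added (Mx1, Socs1 and Casp4), 1 gene passed 1.5-fold upward with 1 RPKM added, and 2 passed 1.5-fold downward with each of the scalings. A minimum mean RPKM of 1 left 8 Gbp genes and 92 pathway genes. Upward, 3 of these Gbp genes passed 2-fold and 4 passed 1.5-fold. Of these pathway genes, 4 passed 1.5-fold upward and 1 downward, and 0 passed 2-fold. No paired analysis was possible because each group is 1 library. Depth limits Gbp5 and Gbp10 most, and the spread between dishes was not measured.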
